A study of Mus musculus with 21 samples.

Results

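Transcripts of 9 mouse genes that build and anchor the cornified envelope outside the gene complex of chromosome 3 were measured by RNA sequencing of epidermis: the transglutaminases Tgm1, Tgm2, Tgm3 and Tgm5, the scaffold proteins Evpl (envoplakin) and Ppl (periplakin), and Cnfn (cornifelin), Cdsn (corneodesmosin) and Casp14 (caspase-14). The genes were taken by name, but the list was chosen with earlier results of these data known. All 9 were found among the 49315 gene identifiers of the files, and all 9 were among the 17755 genes tested after the filter on low counts. The comparison was between mice carrying K14Cre Tfap2a fl/fl Tfap2b fl/fl (double knockout, 3 libraries) and the strain-specific control, labelled WT (3 libraries), both aged 6 months. K14Cre drives Cre recombinase from the keratin 14 promoter, which is active in basal keratinocytes, so floxed genes of cells such as fibroblasts are not its target. Tfap2a and Tfap2b encode AP-2α and AP-2β, which are transcription factors. Libraries of the first group are called knockout-labelled, because neither targeted gene was called lower in them, as given below. Of the other samples, 2 libraries of K14Cre Tfap2b fl/fl mice aged 3 weeks held counts, and 13 of the 21 files of the series listed every gene at 0. The labels do not say that replicates were separate animals, so p-values measure the spread between these samples, which may be technical.

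In the outermost layers of the epidermis, keratinocytes replace their plasma membrane with a cornified envelope. Envoplakin and periplakin, which associate with each other, are laid down beneath the membrane as a scaffold, and transglutaminases, which need calcium, join them and later proteins by bonds between glutamine and lysine side chains. Corneodesmosin is secreted into the desmosomes that hold dead cells together, where kallikrein proteases later cut it so that cells can be shed, and caspase-14 acts in the breakdown of filaggrin.

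One of the 9 genes, Cdsn, passed the test between the 6-month groups: its mean level, in counts per 1000000 counts of a library (CPM), was 54.3% lower in the knockout-labelled libraries than among the controls. The other 8 did not pass. Evpl and Casp14 were higher in every knockout-labelled library than in any control, with log2 fold changes of 0.44 and 0.86, but their p-values in edgeR's quasi-likelihood test, adjusted by Benjamini and Hochberg's method over all genes tested, were 0.0715 and 0.0734. Of all genes tested, 14.9% passed the threshold of 0.05 on the adjusted p, 6.26% as higher and 8.59% as lower, so 1 gene in 9 is close to the share among all genes. The members' log2 fold changes had a median of 0.13, against -0.04 over all genes tested, with 5 positive and 4 negative. The groups did not overlap for 3 of the 9 genes, of which 2 were higher and 1 lower, and they did not overlap for 38.7% of all genes tested. No member was called higher by edgeR, and 2 were higher at an unadjusted p under 0.05. DESeq2 called 2 higher and limma-voom 0. Over all genes, DESeq2 called 1431 higher and 2742 lower, and limma-voom 978 higher and 1164 lower. The share of all genes at an unadjusted p under 0.05 was not computed, so counts at that p cannot be read against it.

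Libraries held 11318181 to 17746284 counts. Control replicates 1 and 2 stood apart, with counts in 35794 and 39362 genes against 23454 to 25537 in the other 6 libraries, and with 1.61 and 3.19 counts per exonic kilobase in odorant and vomeronasal receptor genes against at most 0.195. At that density the exons of the members would hold at most 20.4 counts, a share that was largest for Tgm2. Tfap2a was not lower in the knockout-labelled libraries (log2 fold change 0.47, edgeR adjusted p 0.118), and Tfap2b had a log2 fold change of -0.43 (adjusted p 0.111). Counts over a whole gene include exons that Cre does not remove. No basal, spinous or granular keratinocyte marker was at 0 in any library. As a measure for the counts of markers called by edgeR below, 6.26% of all genes tested were called higher and 8.59% lower. Summed basal keratinocyte markers were at 9640 to 12329 CPM among the controls and at 18162 to 21642 in the knockout-labelled libraries, with 7 of 10 markers called higher (4 without knockout-labelled replicate 1, 5 without control replicate 1 or 2). Granular markers other than the members, those of the layer in which the envelope forms, summed to 3418 to 5723 and to 2208 to 3517 CPM, with 2 of 12 called lower. Wound keratinocyte markers summed to 471 to 744 and to 3514 to 4721 CPM, with 4 of 9 called higher (3 to 6 with 1 library left out, 8 in DESeq2). Among markers of other cell types, 4 of 8 of dermal fibroblasts, 2 of 8 of the sebaceous gland, 2 of 9 of Langerhans and other myeloid cells and 1 of 2 of skeletal muscle were called lower, and 1 of 7 of T cells higher. With 1 library left out, 1 to 7 of the fibroblast markers, 1 to 3 of the sebaceous, 0 to 2 of the myeloid and 0 to 5 of the muscle markers were called lower, the highest count of each without control replicate 3. No myeloid marker was called lower in 4 of these 6 fits and no muscle marker in 5. After the filter on low counts, 7 muscle markers were tested without control replicate 3, against 2 with all 6 libraries. The part of these marker differences in the results below was not tested.

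**Figure D1:**
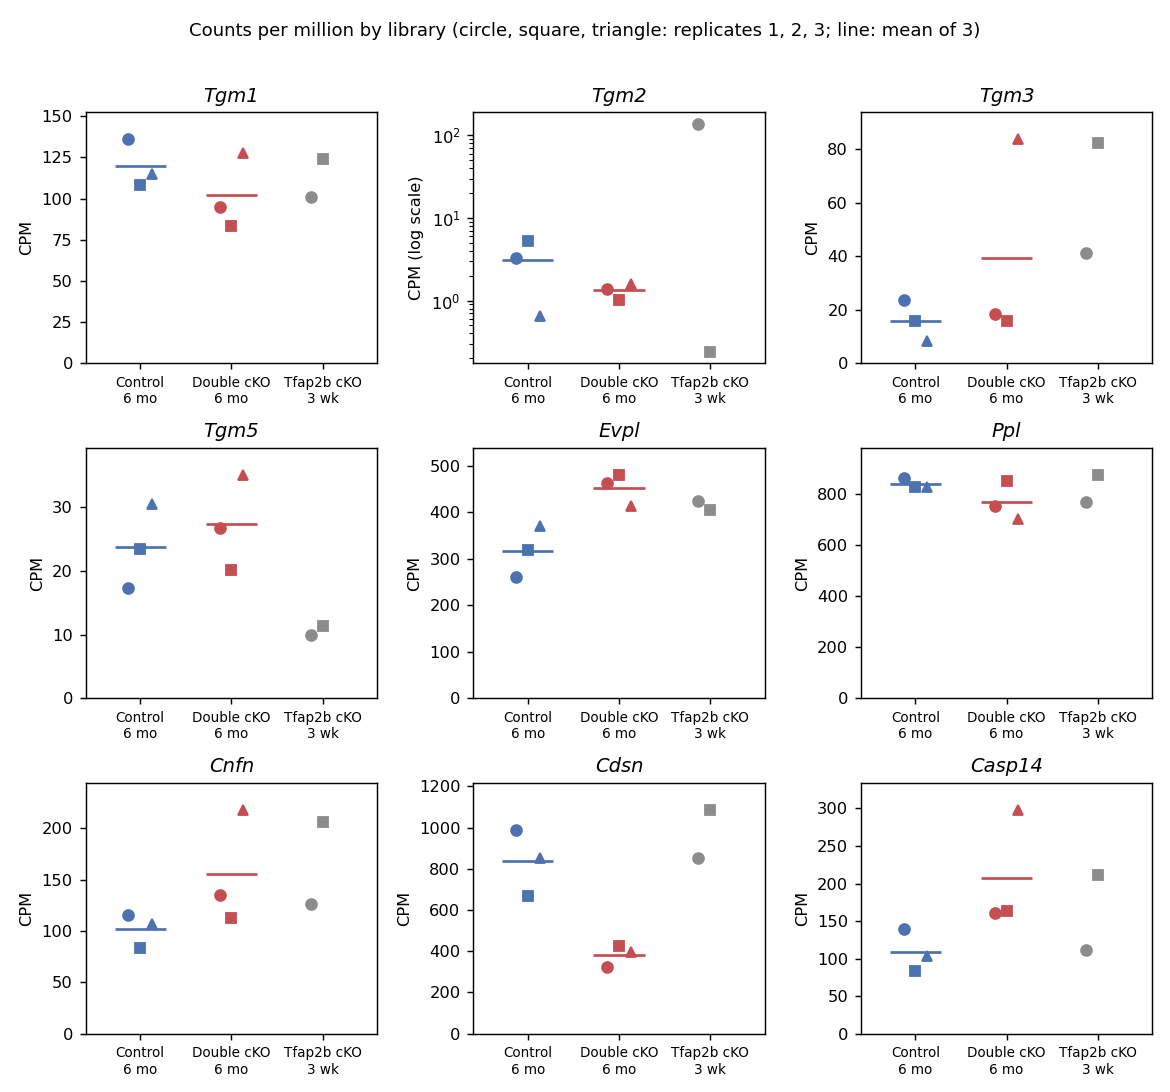
CPM (vertical axes, linear except for Tgm2, which has a log scale) of the 9 genes in the 8 libraries with counts, by group; circles, squares and triangles are replicates 1, 2 and 3, and lines are means of 3. Cdsn is lower in every knockout-labelled library than in any control, Evpl and Casp14 are higher in every one, and the other 6 overlap between the 6-month groups.

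Transglutaminase 1, the membrane-bound enzyme of the epidermis, was the most abundant of the 4 transglutaminases per length. Tgm1 (ENSMUSG00000022218, chromosome 14, 55700009 to 55713492, minus strand, GRCm38) was at 136, 108 and 115 CPM in control replicates 1 to 3 and at 94.9, 83.1 and 128 CPM in the knockout-labelled libraries. Knockout-labelled replicates 1 and 2 lay below every control, whereas replicate 3 lay inside the control range. With a log2 fold change of -0.31 (SE 0.18, 95% interval -0.72 to 0.10), it did not pass the threshold (edgeR adjusted p 0.28). Its exons share 182 bases with an antisense gene, Gm49067, and the use of strand in counting is not given in the sources used here.

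Tgm3 encodes the transglutaminase of hair follicles and upper epidermal layers, which a protease must cut before it is active. It lies on chromosome 2 (ENSMUSG00000027401, 130012349 to 130050399, plus strand). Its level was 23.7, 15.8 and 8.14 CPM among the controls and 18.4, 15.7 and 83.6 CPM in the knockout-labelled libraries. A single library, knockout-labelled replicate 3, held the high value, and the other 2 lay inside the control range. The log2 fold change of 1.23 (SE 0.77, 95% interval -0.63 to 3.12, edgeR adjusted p 0.322) dropped to 0.06 when that library was left out.

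Tgm5, the enzyme whose loss in people causes peeling of the skin at the cornified layer, also lies on chromosome 2 (ENSMUSG00000053675, 121046111 to 121085841, minus strand). Controls held 17.3, 23.5 and 30.5 CPM and knockout-labelled libraries 26.7, 20.2 and 35.1 CPM. The ranges of the groups overlapped over most of their width. A log2 fold change of 0.13 (SE 0.26, 95% interval -0.45 to 0.71, edgeR adjusted p 0.759) turned to -0.07 without knockout-labelled replicate 3 and to -0.05 without control replicate 1, so it has no stable direction.

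Tgm2, the widely expressed tissue transglutaminase (ENSMUSG00000037820, chromosome 2, 158116402 to 158146436, minus strand), was close to the limit of detection at 6 months. It had 40, 60 and 10 counts among the controls (3.32, 5.3 and 0.651 CPM) and 19, 15 and 28 counts (1.38, 1.02 and 1.58 CPM) in the knockout-labelled libraries. The receptor gene density alone would give 7.42, 14.7 and 0.677 of those control counts. Control replicate 3 lay below all 3 knockout-labelled libraries and the other controls lay above them. The log2 fold change was -1.20 (SE 0.68, 95% interval -2.82 to 0.24, edgeR adjusted p 0.223), and it passed the threshold only without control replicate 3, at -1.59 (adjusted p 0.0191). The value was -0.60 (adjusted p 0.608) without control replicate 2 and -0.68 (adjusted p 0.592) in limma-voom. Tgm2 shares 370 exonic bases with Rprd1b on the opposite strand, which had 307 to 745 counts at 6 months, so some reads may belong to either gene. Dermal fibroblast markers, which stand for cells that express Tgm2 in skin, summed to 59.2 to 171 CPM among the controls and 13.8 to 25.4 CPM in the knockout-labelled libraries, with 1 of 8 at 0 in knockout-labelled replicate 1. Of the 8, 4 were called lower, against 1 when any one knockout-labelled library was left out and 7 without control replicate 3. Their part in the Tgm2 values was not tested.

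Tgm4 and Tgm7, 2 further members of the family, were tested, and neither passed at an adjusted or unadjusted p in edgeR. Tgm7 was at 13.2, 15.0 and 27.8 CPM among the controls and 11.7, 24.0 and 3.66 CPM in the knockout-labelled libraries. Of the 5 genes of this list, DESeq2 called 1 lower.

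A share within a library does not depend on how libraries are scaled to each other. Of the summed level per exonic kilobase of the 4 enzymes, Tgm1 made up 79.2%, 74.3% and 76.5% among the controls and 70.5%, 72.6% and 57.3% in the knockout-labelled libraries. Every knockout-labelled library lay below every control, at means of 66.8% ± 8.31 and 76.7% ± 2.46 (SD, n = 3 each, a difference of -9.83 percentage points). An exact permutation test gave p = 0.1, the smallest that 3 against 3 allows, and 0.4 after adjustment over the 4 shares. Without knockout-labelled replicate 3, the library with the lowest share of Tgm1, the difference was -5.07 percentage points. Tgm3 took 9.99%, 7.91% and 3.93% among the controls and 9.93%, 9.96% and 27.2% in the knockout-labelled libraries (exact p = 0.3, adjusted 0.533). The share of Tgm5 was 9.55% to 19.3% among the controls and 15.0% to 18.9% in the other group (exact p = 0.7), and that of Tgm2 was at most 2.38% in all 6 libraries (exact p = 0.4).

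**Figure D2:**
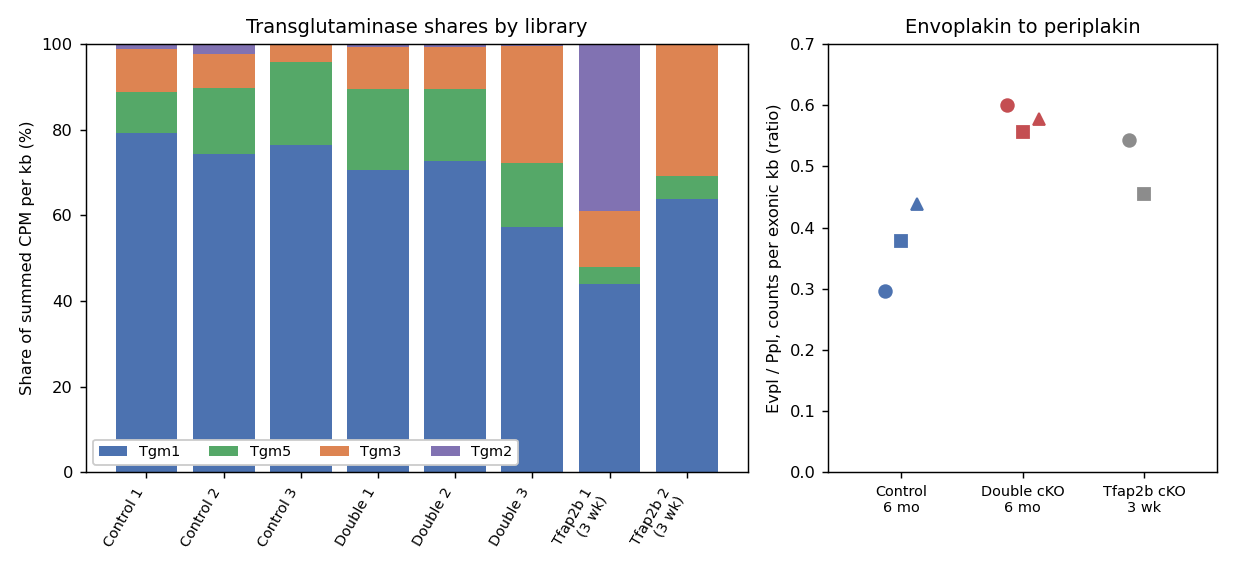
Left, share (%) of each transglutaminase in the summed CPM per exonic kilobase of the 4 enzymes, by library; right, ratio of Evpl to Ppl in counts per exonic kilobase, by library, with circles, squares and triangles for replicates 1, 2 and 3. Tgm1 makes up 74.3% to 79.2% in controls and 57.3% to 72.6% in knockout-labelled libraries, and the ratio is 0.296 to 0.439 in controls and 0.556 to 0.601 in knockout-labelled libraries.

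The scaffold pair had log2 fold changes of opposite sign, and neither gene passed the test. Evpl (ENSMUSG00000034282, chromosome 11, 116220559 to 116238077, minus strand) was at 260.3, 319 and 369.8 CPM among the controls and at 462, 481 and 413 CPM in the knockout-labelled libraries. Its groups did not overlap, and the lowest knockout-labelled library, replicate 3, stood next to the highest control, replicate 3. Means were 316 ± 54.8 and 452 ± 35.0 CPM (SD, n = 3), and the log2 fold change was 0.44 (SE 0.15, 95% interval 0.11 to 0.77), with an unadjusted p of 0.0137 and an adjusted p of 0.0715 in edgeR. Evpl passed the threshold in 4 of 18 alternative fits: with DESeq2 (0.49, adjusted p 0.0277), without a filter on low counts (0.55, 0.024), with total counts as the scale (0.50, 0.0497) and without control replicate 3 (0.65, 0.00887).

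Ppl (ENSMUSG00000039457, chromosome 16, 5086291 to 5132481, minus strand) was the steadiest of the 9 among the controls, at 865, 830.3 and 828 CPM. In the knockout-labelled libraries it was at 756, 851 and 703 CPM. Replicate 2 of that group lay inside the control range and the other 2 below it. A log2 fold change of -0.20 (SE 0.13, 95% interval -0.49 to 0.08, edgeR adjusted p 0.307) was negative in all 18 alternatives, between -0.27 and -0.09, and passed in none.

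The ratio of Evpl to Ppl per exonic kilobase was 0.296, 0.378 and 0.439 in control replicates 1 to 3 and 0.601, 0.556 and 0.578 in the knockout-labelled libraries. On the log2 scale it was -1.45 ± 0.29 and -0.79 ± 0.06 (SD, n = 3), a difference of 0.66. The groups did not overlap, and the exact permutation test reached its smallest p of 0.1. Evpl thus had fewer counts per length than Ppl in every 6-month library, by a smaller margin in the knockout-labelled ones. The ratio was also above every 6-month control, at 0.543 and 0.455, in the 3-week K14Cre Tfap2b fl/fl libraries, whose age differs as well. Of 4 other plakins, the family of large linker proteins to which both belong, Dst (dystonin, of basal cell anchorage) rose with a log2 fold change of 0.57 (edgeR adjusted p 0.046) and Macf1 (a linker of actin and microtubules) fell with -0.59 (0.016). Over all genes tested, 6.26% rose and 8.59% fell by that measure. The call of Dst was kept in 1 of the 6 fits that leave out 1 library (without control replicate 3), and that of Macf1 in the 3 that leave out a control. Dsp (desmoplakin, the plakin of desmosomes) was at 7423 to 8296 and 7223 to 8566 CPM, with a log2 fold change of -0.09 (adjusted p 0.705).

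Cornifelin is a small protein of the cornified envelope. Cnfn (ENSMUSG00000063651, chromosome 7, 25367620 to 25369724, minus strand) was at 116, 83.8 and 107 CPM among the controls and at 135, 113 and 218 CPM in the knockout-labelled libraries. Knockout-labelled replicate 3 was the highest library, and replicate 2 lay below control replicate 1. Cnfn did not pass, at a log2 fold change of 0.52 (SE 0.24, 95% interval -0.02 to 1.07, edgeR adjusted p 0.171). It dropped to 0.23 without knockout-labelled replicate 3, and it passed the threshold in 1 alternative, the fit without a filter (0.64, adjusted p 0.0102).

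Cdsn (ENSMUSG00000039518, chromosome 17, 35552128 to 35557180, plus strand) was at 989.7, 666 and 851 CPM in control replicates 1 to 3 (11917, 7543 and 13077 counts) and at 325, 423 and 398 CPM in the knockout-labelled libraries (4486, 6201 and 7055 counts). The highest knockout-labelled library lay well below the lowest control. Mean levels were 836 ± 162 and 382 ± 50.8 CPM (SD, n = 3), which is 54.3% lower. The log2 fold change was -1.21 (SE 0.18, 95% interval -1.60 to -0.81), that is, 0.33 to 0.57 times the control level, with an adjusted p of 0.00344 in edgeR. Cdsn passed the threshold in all 18 alternatives, with log2 fold changes of -1.34 to -1.05 and adjusted p-values of 3.89e-08 to 0.0295. In a bulk sample, fewer granular cells and less Cdsn RNA per cell cannot be told apart.

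**Figure D3:**
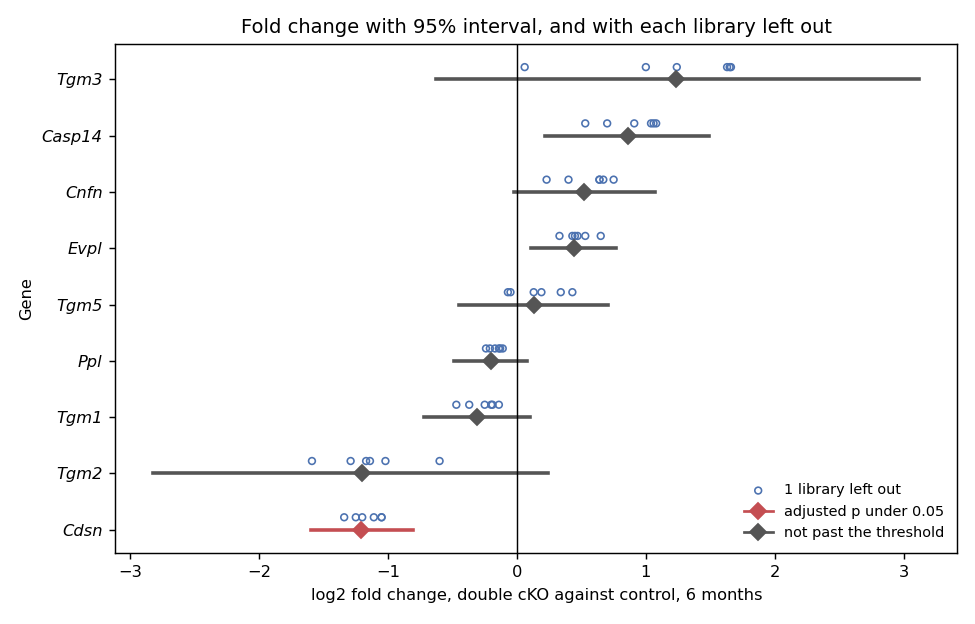
Log2 fold change, double knockout against control at 6 months (horizontal axis), of the 9 genes (vertical axis); diamonds are estimates, bars 95% intervals, and open circles the estimates with 1 of the 6 libraries left out. Only the interval of Cdsn, in red, belongs to a gene past the threshold; the open circles of Tgm3 reach from 0.06 to 1.66 and those of Tgm5 lie on both sides of 0.

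Cdsn was set beside 11 other genes of the desmosome and corneodesmosome, the junctions it is built into. By edgeR's adjusted p, 5 rose, 2 fell and 4 did not pass, with a median log2 fold change of 0.37. Of all genes tested, 6.26% rose and 8.59% fell by that measure. Dsc2 (desmocollin 2) went from 9.05, 12.5 and 15.7 CPM to 54.9, 53.7 and 54.4 CPM, a log2 fold change of 2.04 (adjusted p 0.000631). Dsg1b and Dsg3, cadherins of desmosomes, rose by log2 fold changes of 0.87 (0.00565) and 0.84 (0.00986). These 3 calls were kept in all 6 fits that leave out 1 library. Dsg1b has close paralogs, so its reads may be shared with them, and its neighbour Dsg1a was at -0.39 (adjusted p 0.182). The remaining calls were picked out after their values were seen: Pkp1 (0.59, adjusted p 0.0168) and Pkp3 (0.71, 0.022), which encode plakophilins, rose, and Dsc1 (-0.88, 0.043), the desmocollin of upper layers, and Pkp2 (-1.93, 0.0421), at 8.04 CPM or less at 6 months, fell. With 1 library left out, 3 to 6 of the 11 genes rose and 0 to 2 fell, with 3 and 0 without control replicate 1 or without knockout-labelled replicate 1 or 2. The calls of Dsc1, Pkp2 and Pkp3 were each kept in 2 of these 6 fits and that of Pkp1 in 3, against all 6 for Cdsn. Pkp2 had 11 to 91 counts per library at 6 months. Desmosomal genes were thus called in both directions, and the 2 called lower, Dsc1 and Pkp2, were less stable than Cdsn.

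**Figure D4:**
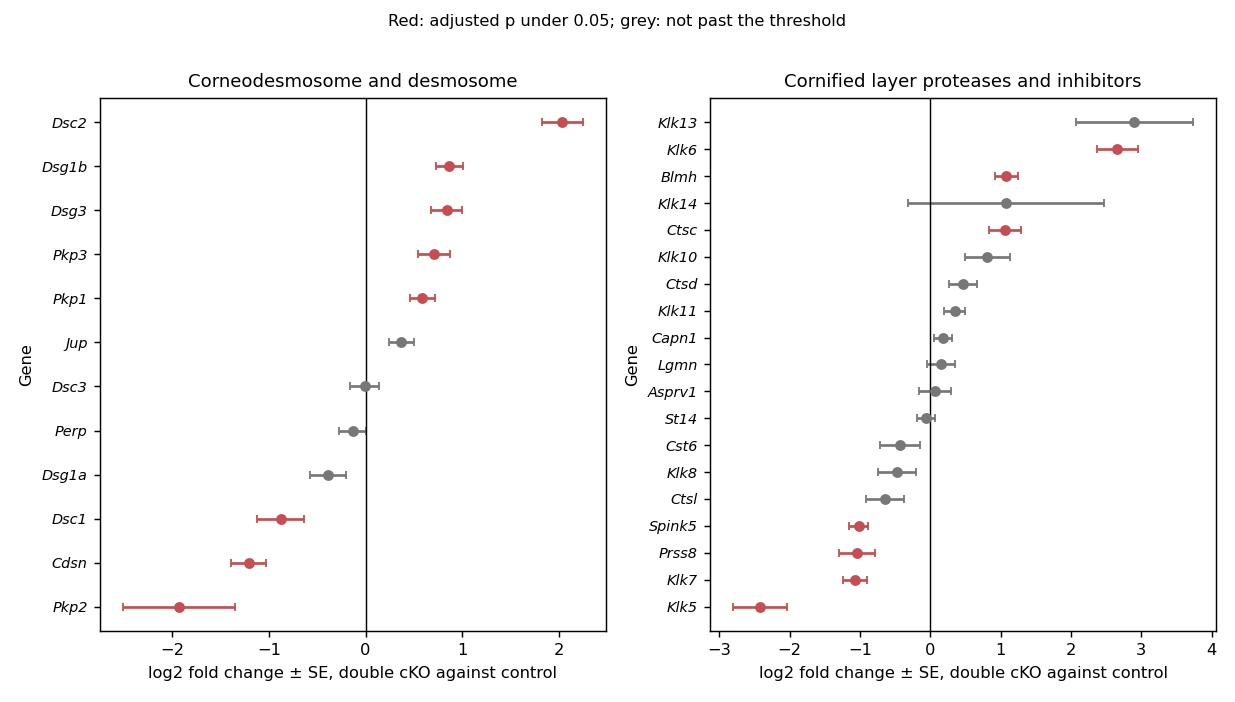
Log2 fold change ± SE, double knockout against control at 6 months (horizontal axes), of Cdsn with 11 desmosomal genes (left) and of 19 cornified layer proteases and inhibitors (right); red marks an adjusted p under 0.05. Cdsn at -1.21, Dsc1 and Pkp2 are the red points left of 0 in the first panel, and Klk5, Klk7, Prss8 and Spink5 those in the second.

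The proteases and inhibitors that act on corneodesmosomes and envelope proteins also split. Of 19 tested, 3 rose, 4 fell and 12 did not pass (median log2 fold change 0.15), while 6.26% of all genes tested rose and 8.59% fell. Klk6, a kallikrein, went from 4.32, 4.77 and 2.6 CPM to 33.1, 21.1 and 25.8 CPM (log2 fold change 2.66, edgeR adjusted p 0.000875). Spink5, which encodes the inhibitor of kallikreins LEKTI, fell by 1.02 on the log2 scale (0.00241), from 1191 to 1438 CPM among the controls to 641 to 728 CPM. Blmh, bleomycin hydrolase, which degrades filaggrin peptides after caspase-14, rose by 1.08 (0.00337). Klk5, a kallikrein that cuts corneodesmosin, was at 138, 68.5 and 69.5 CPM among the controls and at 10.6, 24.8 and 18.7 CPM in the knockout-labelled libraries (-2.42, 0.00742). Klk7, another corneodesmosin-cutting kallikrein, and Prss8 and Ctsc were picked out after their values were seen. Klk7 fell from 232 to 356 CPM to 141 to 161 CPM (-1.07, 0.00495), Prss8, a membrane-anchored protease, was at -1.04 (0.0301) and Ctsc, cathepsin C, at 1.06 (0.018). The calls of Klk5, Klk6, Klk7, Spink5 and Blmh were kept in all 6 fits that leave out 1 library. That of Ctsc was kept in 4 of the 6 and that of Prss8 in 2 of the 6. In these fits 2 to 5 genes of the list rose and 3 to 5 fell, with 5 rises without knockout-labelled replicate 2, 2 rises without knockout-labelled replicate 1 or control replicate 2, and 5 falls without control replicate 3. Of the 20 genes of the list, DESeq2 called 5 higher and 4 lower. Cdsn, Klk5, Klk7 and Spink5 were each lower in every knockout-labelled library than in any control. The groups did not overlap for 38.7% of all genes tested. Klk5 was named as 1 of the 3 genes most like Cdsn over these libraries, so its fall beside Cdsn follows from that choice.

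Caspase-14 is the caspase of cornifying keratinocytes. Casp14 (ENSMUSG00000005355, chromosome 10, 78711997 to 78718293, minus strand) was at 139, 83.5 and 104 CPM among the controls and at 160.4, 163 and 298 CPM in the knockout-labelled libraries. The groups did not overlap, but knockout-labelled replicates 1 and 2 were close to control replicate 1, and replicate 3 was far above. Its log2 fold change of 0.86 (SE 0.28, 95% interval 0.22 to 1.49) had an unadjusted p of 0.0144 and an adjusted p of 0.0734 in edgeR. Casp14 passed with DESeq2 (0.90, adjusted p 0.00824) and without a filter (0.97, 1.08e-05), and it dropped to 0.53 without knockout-labelled replicate 3. Of 9 other caspases, 3 rose, with a median log2 fold change of 0.13 over the 9, while 6.26% of all genes tested rose. They were Casp12 (1.84, edgeR adjusted p 0.0263), Casp8 (0.75, 0.0468), the initiator caspase of death receptors, and Casp1 (0.72, 0.0483), the inflammatory caspase. The call of Casp12 was kept in 3 of the 6 fits with 1 library left out, that of Casp8 in 2 and that of Casp1 in 1. Over those fits, 0 (without control replicate 2 or knockout-labelled replicate 1) to 5 (without control replicate 3) caspases rose. At an unadjusted p under 0.05, 4 caspases were higher and 0 lower, and both DESeq2 and edgeR called none lower. The share of all genes at that unadjusted p was not computed.

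Knockout-labelled replicate 3 held the highest 6-month value of Tgm3, Tgm5, Cnfn and Casp14. Across all 8 libraries, log2(CPM + 1) of Cnfn and Casp14 had a Pearson correlation of 0.914, the highest of the 36 pairs of members, followed by Tgm3 and Cnfn at 0.860 and Tgm3 and Casp14 at 0.724. The lowest was Tgm1 and Evpl, at -0.689. These correlations describe 8 libraries from 3 groups and 2 ages, and all pairs share the same libraries.

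Per length, the controls ranked in the order Cdsn, Cnfn, Ppl, Evpl, Casp14, Tgm1, Tgm5, Tgm3 and Tgm2. Their mean CPM per exonic kilobase (RPKM) were 312, 143, 134, 49.6, 46.7, 39.9, 7.53, 3.84 and 0.671. Neighbours in that order overlapped in their ranges except Cdsn and Cnfn, Ppl and Evpl, Tgm1 and Tgm5, and Tgm3 and Tgm2. In the knockout-labelled libraries Cnfn stood first, at 216 RPKM ± 76.9, and Cdsn second, at 143 RPKM ± 19 (SD, n = 3), with overlapping ranges. The rest followed as Ppl (123), Casp14 (89.0), Evpl (70.9), Tgm1 (33.9), Tgm3 (9.49), Tgm5 (8.66) and Tgm2 (0.288 RPKM). Here only Evpl and Tgm1, Tgm1 and Tgm3, and Tgm5 and Tgm2 were neighbours without overlap. The range of Cdsn lay above those of the other 8 genes among the controls and overlapped those of Cnfn, Ppl and Casp14 in the knockout-labelled libraries. The precision differed as well: the SD was 2.45% of the mean for Ppl and 75.5% for Tgm2 among the controls, and 98.0% for Tgm3 in the knockout-labelled libraries.

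Promoter windows from RefSeq (GRCm38.p6, 250 bases before to 50 after a start) were matched by symbol for 6 of the 9 genes, in 8 windows. They were searched on both strands for the palindrome GCCNNNGGC bound by AP-2 factors, for AACCGGTT, bound by grainyhead-like factors, for TGANTCA, bound by AP-1, and for TATAAA, the TATA box. The AP-2 letters were in 1 of the 6 genes, Cnfn, and in 16.6% of all 32851 windows, and TATAAA was in 1, Tgm3, and in 13.6% of all windows. The grainyhead-like letters (0.146% of all windows) and the AP-1 letters (7.81%) were in none of the 8. Both windows of Cdsn, the gene that fell, held none of the 4, which says only that these letters are not in these bases. The windows of Cdsn at its annotated start (chr17:35551878-35552177, plus strand) and of Cnfn (chr7:25369675-25369974, minus strand) are shown 5′ to 3′ so that the gene that passed the test can be set beside the one window with the AP-2 letters, which are in capitals and begin 52 bases before the start.
Cdsn: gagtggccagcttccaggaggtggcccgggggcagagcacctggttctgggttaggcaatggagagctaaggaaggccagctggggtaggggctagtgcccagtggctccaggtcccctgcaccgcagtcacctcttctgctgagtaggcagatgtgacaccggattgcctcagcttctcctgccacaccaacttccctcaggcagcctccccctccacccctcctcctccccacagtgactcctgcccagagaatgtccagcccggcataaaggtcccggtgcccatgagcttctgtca
Cnfn: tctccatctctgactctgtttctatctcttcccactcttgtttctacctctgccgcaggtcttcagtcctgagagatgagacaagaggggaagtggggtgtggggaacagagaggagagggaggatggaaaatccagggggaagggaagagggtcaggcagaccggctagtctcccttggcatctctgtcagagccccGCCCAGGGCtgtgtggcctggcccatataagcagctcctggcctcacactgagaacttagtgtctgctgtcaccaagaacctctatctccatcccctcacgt

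The genes whose profile over the 8 libraries was most like that of each member were taken by Pearson correlation of log2(CPM + 1), among 11341 genes with a mean of at least 5 CPM. For Cdsn these were Cyp2b19 (0.989), a cytochrome P450 of keratinocytes, Klk5 (0.985) and Ppp1r13b (0.985). Cyp2b19 was at 519, 299.7 and 384 CPM among the controls, 107, 172 and 129.5 CPM in the knockout-labelled libraries, and 419 and 757 CPM in the 3-week libraries. Its lowest values were in the knockout-labelled libraries, as for Cdsn, which follows from its choice by this correlation. Evpl was most like Clcn7 (0.998), a lysosomal chloride transporter, Incenp (0.995), of the chromosomal passenger complex, and Fam122a (0.989). Clcn7 was at 42.7, 56.1 and 68.3 CPM among the controls and at 98.3, 101 and 84.4 CPM in the knockout-labelled libraries. For Casp14 the nearest were Epn3 (0.967), Rpia (0.964) and Il1f5 (0.934), and for Cnfn Klk9 (0.957), Gm17029 (0.949) and Otub2 (0.935). Tgm3 also had Klk9 (0.876) among its 3, after Orm1 (0.920) and Ubtd2 (0.882). Tgm1 was nearest to Adgrl2 (0.965), Ppif (0.940) and Pcnx (0.928), Tgm5 to Far1 (0.969), Higd1a (0.964) and Med21 (0.962), and Ppl to Cfap300 (0.984), Gm13219 (0.976) and Bbox1 (0.974). The 3 nearest to Tgm2, Fmo1 (0.997), Adamts4 (0.995) and Adam12 (0.995), were high in 1 library, described next.

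In the 2 libraries of K14Cre Tfap2b fl/fl mice at 3 weeks, replicates 1 and 2, Tgm1 was at 101 and 124 CPM and Tgm5 at 10 and 11.3 CPM, the latter below all 6 libraries of 6 months. Tgm2 was at 138 CPM (1793 counts) in replicate 1 and 0.24 CPM (3 counts) in replicate 2. Replicate 1 therefore held 39.1% of the summed transglutaminase level as Tgm2, and replicate 2 held 0.0802%. Tgm1 made up 43.9% of that level in replicate 1 and 63.7% in replicate 2. The same replicate 1 had 2687 CPM of summed dermal fibroblast markers, 564 of endothelial and 2355 of adipocyte markers, against 17.7, 7.19 and 0.719 CPM in replicate 2. The part of those cells in its Tgm2 value was not tested. Genotype and age differ at once between these libraries and those of 6 months, and no control of 3 weeks was analysed here. Differences from the 6-month libraries are therefore given as values only and were not tested.

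Other lists of the envelope were read from the same fit. Of all genes tested in it, 14.9% passed the threshold, 6.26% as higher and 8.59% as lower. The share at an unadjusted p under 0.05 was not computed, so the counts at that p given below have no such share beside them. Of 36 tested envelope proteins of the chromosome 3 complex, 3 rose and 3 fell, with a median log2 fold change of 0.35. At an unadjusted p under 0.05, 8 were higher and 5 lower in edgeR. Of the 47 genes of the list, DESeq2 called 8 higher and 3 lower and the edgeR fit without a filter 12 higher and 2 lower. Sprr1b, a small proline-rich protein, went from 10.4, 2.83 and 8.01 CPM to 189, 179 and 153 CPM (log2 fold change 4.51, edgeR adjusted p 0.000772), and Sprr2a3, which has near-identical copies that may share its reads, rose by 3.87 (0.00474). Flg2, filaggrin-2, fell by 1.47 on the log2 scale (0.00982), from 1678 to 2520 CPM to 535 to 1107 CPM. These 3 calls were kept with any 1 library left out, while 2 to 5 genes rose and 1 to 3 fell, with 5 rises without knockout-labelled replicate 2 and 1 fall without control replicate 1. Of 18 lipid envelope genes, which make and attach the ceramides that cover the envelope, 2 fell, Sdr9c7 (-1.28, 0.0151) and Ugcg (-0.67, 0.016), with a median of -0.31. None rose in edgeR or in DESeq2, which called 3 lower. At an unadjusted p under 0.05 in edgeR, 0 were higher and 7 lower. Of 20 transcription factors of terminal differentiation, 3 rose and 2 fell (median 0.02), among them Maf (1.33, 0.00125), which rose, and Ovol1 (-0.98, 0.0168), which fell. Without knockout-labelled replicate 1, only Maf of these factors was called and the calls of Sdr9c7 and Ugcg were lost, and without replicate 2 those of Ugcg and Ovol1 were lost, leaving 2 factors higher and 0 lower. Without control replicate 3, 4 factors rose and 4 fell. Of 10 secreted and other proteins of the envelope none passed in edgeR, while 2 were higher and 3 lower at an unadjusted p under 0.05 and DESeq2 called 1 higher and 2 lower.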

How the data were processed

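RNA of epidermal sheets was depleted of ribosomal RNA and sequenced as pairs of 150 bp reads, per the labels' protocols. The deposited values are whole-number counts per Ensembl gene, not normalized. The submitters' processing notes name Trimmomatic 0.36, STAR 2.5.2b, featureCounts, Subread 1.5.2 and the builds GRCm38 and GRCh38. How the authors treated strand and reads that map to several places is not given in the sources used here. Symbols came from GENCODE M21 (49056 of 49315 identifiers), and coordinates are those of the files, read as GRCm38 (44823 with the same start and end in M21).

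CPM were computed on total counts, and RPKM on the files' exonic lengths. The 6-month groups were compared with edgeR 4.0.16 in R 4.3.3 (filterByExpr, TMM, glmQLFit with robust = TRUE, glmQLFTest, prior count 2), with Benjamini-Hochberg adjustment over 17755 genes. Shares and the ratio of Evpl to Ppl were compared by two-sided exact permutation tests (scipy 1.17.1). In simulated data for this comparison, 138 of 186 genes changed 4-fold (74.2%) were called among 17259 tested, and 148 genes were called in all. Every library was simulated from one mean profile, and the members' fold changes were smaller than 4-fold. The share called thus does not hold for the members. Alternatives included DESeq2 1.42.0 and limma-voom (limma 3.58.1). The members, the 9 pathway lists and the 13 marker lists were chosen with earlier results of these data known. From each pathway list, up to 3 genes past the threshold with at least 1 CPM were named in order of adjusted p, and for each member the 3 most correlated genes. One gene that this rule names is not reported here. Eppk1, Krt85 and Trgv5 were not analysed here. Samples were grouped by title. Same-numbered libraries did not deviate together (r = 0.028, -0.161 and -0.057), so no block was used.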

Additional observations from a re-analysis of the deposited data

Results flagged for a closer look

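The libraries of K14Cre Tfap2b fl/fl mice aged 3 weeks were tested against no other group. Some of their values lay above the highest 6-month control. As age and genotype differ together and no 3-week control was analysed here, these are given as values only. Tgm2 was at 138 CPM in replicate 1, the library with high dermal, endothelial and adipocyte markers. Tgm3 was at 41.0 and 82.4 CPM in replicates 1 and 2, Evpl at 425 and 405 CPM, and Cnfn at 126 and 206 CPM. In replicate 2 alone, Ppl was at 877 CPM, Cdsn at 1085 CPM and Casp14 at 211 CPM.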

How the results depend on the processing

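Over 18 alternatives and 9 genes, 152 of 162 log2 fold changes kept their direction and their side of the threshold, 8 passed it in addition, 0 no longer passed and 2 reversed. The reversals were both of Tgm5, which ranged from -0.07 to 0.43 with 1 library left out, and its share difference then ranged from -0.47 to 4.4 percentage points. Of the 9 genes, 3 passed with DESeq2, 4 without a filter, 2 with total counts, and 1 to 3 with 1 library left out, the 3 without control replicate 3. Of all genes, 2637 passed, against 4173 with DESeq2, 4809 without a filter, 1548 with all libraries in one fit, 585 in the test against a fold change of 1.5, and 668 (without knockout-labelled replicate 1) to 7544 (without control replicate 3) with 1 library left out. With the replicate block, 1729 genes and 1 of the 9, Cdsn, passed, and no call of the 9 changed. The labels do not say whether same-numbered samples are paired. The cause of these changes was not tested. With 3 libraries a group, differences as small as those of Ppl or Tgm1 were not resolved, and Tgm2 rests on 10 to 60 counts per library.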

Other observations

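Knockout-labelled replicate 3, the highest 6-month library for Tgm3, Cnfn and Casp14, was also the highest for several genes of the envelope and protease lists. These were picked out after their values were seen. Flg (filaggrin, a substrate in whose breakdown caspase-14 acts) was at 99.6, 149 and 586 CPM in knockout-labelled replicates 1 to 3 and at 106 to 160.2 CPM among the controls. Rptn (repetin) was at 29.1, 11 and 190.1 CPM against 4.43 to 7.51 CPM, Lce3c at 3.04, 1.36 and 23.2 CPM against 0.586 to 7.89 CPM, and Klk13 at 10.6, 8.66 and 49.9 CPM against 1.17 to 3.99 CPM. None of these 4 passed the threshold in edgeR, with adjusted p-values of 0.395 (Flg), 0.127 (Rptn), 0.586 (Lce3c) and 0.0559 (Klk13). Flg2, Lor and Cdsn were not high in that library, at 751, 219 and 398 CPM.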
